A study of Saccharomyces cerevisiae with 24 samples.

Results

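The genes described here encode 51 assembly factors of the large, 60S ribosomal subunit of budding yeast. They were chosen by name and known role (NOP, RPF, NOC, DBP, SPB, NOG and related genes) from 6205 open reading frames (ORFs) in the table. All 51 were present, had a value on each of the 24 arrays and passed the filter on missing values, which kept 6195 ORFs. Each array compared total RNA of 2 strains grown in YEPD, a rich glucose medium, in the dyes Cy5 and Cy3. The compared strains were the strain labelled dot4 null (UCC6435), dot4-1 with a 6Myc tag (UCC6406), dot4-5 with a 6Myc tag (UCC6407) and a strain with DOT4 without the tag (UCC6432). Each was set against UCC6408, which carries wild-type DOT4 with the 6Myc tag (DOT4-6Myc), in 3 numbered sets of 2 arrays with exchanged dyes. DOT4 is named UBP10 (YNL186W) in the reference annotation and encodes a deubiquitinase of histone H2B known for its part in telomeric silencing. The labels used here do not give the lesions in dot4-1 and dot4-5 or the marker genotypes, and do not say whether sets were separate cultures or a strain was 1 clone.

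Ribosome assembly begins in the nucleolus, where RNA polymerase I makes a long precursor of the ribosomal RNAs and assembly factors join it while it is being folded, modified and cut. Precursors of the large subunit then pass through the nucleoplasm to the nuclear pore and are finished in the cytoplasm, where the last factors are released and recycled. Helicases, GTPases and AAA ATPases drive single steps, placeholder proteins occupy sites that ribosomal proteins take later, and most of the genes are essential. In yeast these genes belong to the ribosome biogenesis regulon, whose transcripts rise and fall together with growth conditions.

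All values are log2 ratios of a strain over DOT4-6Myc, with each array centred on its median, so they are relative to the typical ORF, and a change in total RNA per cell cannot be seen. A set value is the mean of its 2 arrays, ± is the SD over 3 sets, and a gene was said to rise or fall where limma gave a Benjamini-Hochberg adjusted p under 0.05 over all 6195 ORFs. The direction is the likely one and not the order in the labels. In that order UBP10 would be higher on 6 of 6 arrays of the strain labelled null, so all 24 arrays were turned alike, which puts UBP10 at -4.69 ± 0.37 there (25.8-fold lower, adjusted p = 1.22e-11), at -0.62 ± 0.054 in dot4-1 (adjusted p = 7.61e-05), at -0.24 ± 0.025 in dot4-5 (adjusted p = 0.817) and at -0.17 ± 0.081 in untagged DOT4 (adjusted p = 0.202). For each ORF the fit shares its estimate of the spread over all 4 strains. The SD of 0.37 for UBP10 in the strain labelled null thus enters its adjusted p in the other strains. In each of those strains UBP10 was below 0 on 6 of 6 arrays. The dye component, the part that does not turn with the strain, correlated across ORFs at 0.823 to 0.906 between strains, so the numerator dye was the same for all 4. Read in label order, all signs below turn, and if names had been swapped on the arrays of the strain labelled null alone, its values would stand, those of the other 3 strains would turn, and its differences from them would change in size as well as sign. All 4 comparisons share the DOT4-6Myc strain, so their values are set side by side and no agreement between them is counted. The spread between sets may be technical in part.

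The assembly genes were higher in the strain labelled null and in dot4-1, near 0 in dot4-5 and lower in untagged DOT4. In the strain labelled null 49 of 51 rose and 0 fell, against 30.7% of all ORFs higher and 32.7% lower (63.4% in all). In dot4-1 48 rose and 2 fell, against 35.9% of all ORFs higher and 37.5% lower (73.4% in all). In dot4-5 0 of 51 passed, 0 had an unadjusted p under 0.05, and 1.03% of all ORFs passed (0.92% higher and 0.113% lower). In untagged DOT4 38 fell and 0 rose, against 14.6% of all ORFs lower and 11.2% higher (25.8% in all). The members' median was 0.53 in dot4-1, with all ORFs at -0.01, and 0.525 in the strain labelled null, with all ORFs at -0.01. It was -0.01 in dot4-5 and -0.305 in untagged DOT4, where the median of all ORFs was -0.003 and -0.005. On arrays scaled to a common spread the medians were 0.359 in the strain labelled null, 0.315 in dot4-1, -0.027 in dot4-5 and -0.375 in untagged DOT4. The sizes thus depend on the scaling, which made them smaller in the strain labelled null and dot4-1 and larger in untagged DOT4. Without scaling the medians amount to 1.44-fold higher in the strain labelled null, 1.44-fold higher in dot4-1 and 1.24-fold lower in untagged DOT4, and no member changed by as much as 2-fold in any of the 4 strains. By rank, 44 members in the strain labelled null and 39 in dot4-1 lay among the highest 10% of all ORFs, and 41 in untagged DOT4 lay among the lowest 10%.

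**Figure D1:**
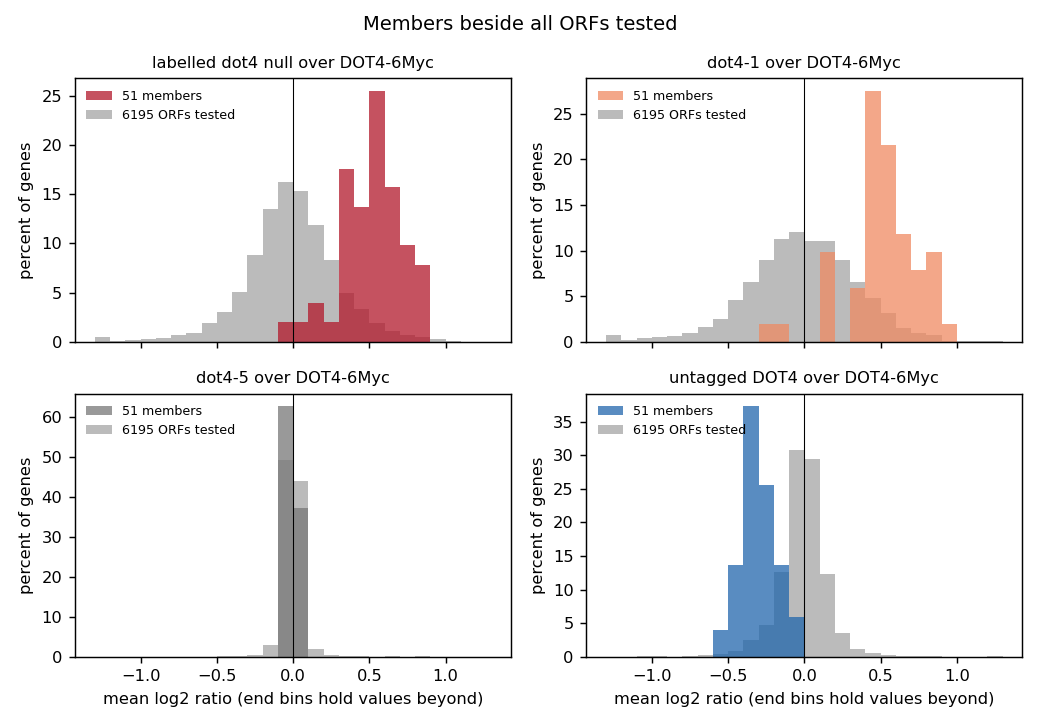
Percent of genes (vertical axis) by mean log2 ratio over DOT4-6Myc in bins of 0.1 (horizontal axis), for the 51 members (coloured) and all 6195 ORFs tested (grey), 1 panel per strain. The members lie to the right of the bulk in the strain labelled null and in dot4-1, inside it in dot4-5 and to the left in untagged DOT4.

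Sets of a strain differed in size. All 3 sets were above 0 for 45 members in the strain labelled null and for 49 in dot4-1, and all 3 were below 0 for 42 in untagged DOT4. In dot4-5 all 3 were above 0 for 4 members and below 0 for 13, so the sets of most members there lay on both sides of 0. The members' median in sets 1, 2 and 3 was 0.296, 0.62 and 0.674 in the strain labelled null, 0.423, 0.616 and 0.521 in dot4-1, -0.003, -0.032 and 0.003 in dot4-5, and -0.319, -0.199 and -0.417 in untagged DOT4. Set 1 of the strain labelled null was the lowest for 44 of 51 members, set 1 of dot4-1 for 41, and set 2 of untagged DOT4 was nearest to or above 0, as the highest set, for 45. The members thus moved up and down together from set to set, and sets of different members are not independent. The spread over all ORFs differed between sets too. Its median absolute deviation was lowest in set 1 within each dye, at 0.277 (Cy5) and 0.274 (Cy3) in the strain labelled null and 0.363 and 0.301 in dot4-1. In untagged DOT4 set 2 had the highest of the sets with the strain in Cy5 (0.193) and the lowest in Cy3 (0.149). The SD over sets had a median of 0.213 in the strain labelled null, 0.104 in dot4-1, 0.042 in dot4-5 and 0.117 in untagged DOT4. The widest was 0.413 for EBP2 in the strain labelled null. Since the fit shares the spread over strains, an adjusted p in that strain does not rest on the SD printed beside it alone. In a fit of that strain alone 47 members rose, against 21.8% of all ORFs higher and 22.6% lower. All 6 arrays were above 0 for 43 members in the strain labelled null and for 48 in dot4-1, and all 6 were below 0 for 39 members in untagged DOT4. In dot4-5 the sign of the array medians followed the dye in sets 1 and 3, with -0.035 and -0.033 with dot4-5 in Cy5 and 0.020 and 0.034 with it in Cy3.

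**Figure D2:**
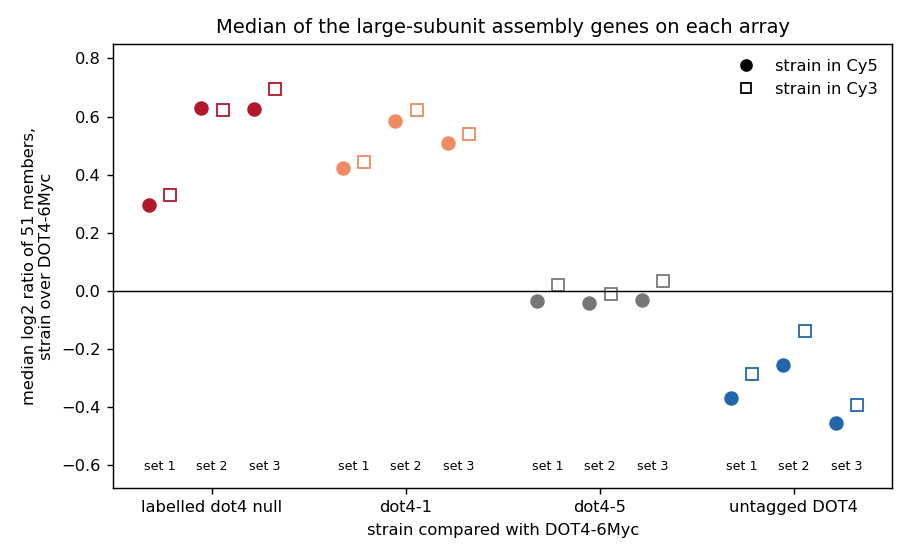
Median log2 ratio over DOT4-6Myc of the 51 members (vertical axis) on each of 24 arrays, grouped by strain and set (horizontal axis), with filled circles for the strain in Cy5 and open squares for the strain in Cy3. Both dyes give medians from 0.296 to 0.694 in the strain labelled null and from 0.421 to 0.621 in dot4-1, while untagged DOT4 lies between -0.456 and -0.141.

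The A3 factors act on the early precursor around the cut that separates the large-subunit branch, and all 6 rose in the strain labelled null (median 0.68) and in dot4-1 (median 0.63). Beside this and the role counts below, 30.7% and 35.9% of all ORFs were higher in these strains. NOP7 (YGR103W), ERB1 (YMR049C) and YTM1 (YOR272W) encode the 3 subunits of 1 complex. NOP7 was at 0.18, 0.84 and 0.77 in the sets of the strain labelled null, at 0.31, 0.68 and 0.64 in dot4-1, at -0.06, -0.07 and -0.04 in dot4-5, and at -0.49, -0.42 and -0.66 in untagged DOT4. It rose by 0.60 ± 0.36 in the strain labelled null (adjusted p = 0.000348) and by 0.54 ± 0.20 in dot4-1 (adjusted p = 0.000494), and its fall to -0.525 ± 0.12 in untagged DOT4 was the lowest value of any member there (adjusted p = 0.00344). ERB1 had 0.412, 0.704 and 0.701 in the sets of the strain labelled null and 0.513, 0.554 and 0.51 in dot4-1, and YTM1 had 0.479, 0.637 and 0.752 and 0.418, 0.555 and 0.536 in the same strains. In untagged DOT4 every set of both genes was below -0.28. ERB1 rose to 0.61 ± 0.17 in the strain labelled null and 0.53 ± 0.025 in dot4-1 and fell to -0.39 ± 0.10 in untagged DOT4. YTM1 rose to 0.62 ± 0.14 in the strain labelled null and 0.50 ± 0.074 in dot4-1 and fell to -0.41 ± 0.058 in untagged DOT4. The 3 genes of the complex therefore had differences of like size within each strain. Such sizes are not particular to the complex. The median over all 51 members was 0.525 in the strain labelled null, 0.526 in dot4-1 and -0.305 in untagged DOT4.

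NOP15 (YNL110C), an RNA-binding protein of the same step, had the highest value of the A3 factors, with set values of 0.38, 0.94 and 1.08 in the strain labelled null and 0.64, 1.03 and 0.88 in dot4-1. Those of untagged DOT4 were -0.32, -0.13 and -0.52, a mean of -0.32 that missed the threshold (adjusted p = 0.0515). CIC1 (YHR052W) and the ribosomal protein L7-like RLP7 (YNL002C) rose to 0.73 ± 0.23 and 0.75 ± 0.20 in the strain labelled null and both rose to 0.71 in dot4-1, and they fell to -0.33 ± 0.13 and -0.31 ± 0.20 in untagged DOT4. In dot4-5 the 6 factors lay between -0.06 and 0.00.

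The RNA helicases of the DEAD-box family, which unwind or remodel RNA in the precursor, rose in 9 of 9 cases in the strain labelled null and in dot4-1, but over a wide range. DBP9 (YLR276C) was the highest in the strain labelled null at 0.68 ± 0.31, and DBP7 (YKR024C) the highest in dot4-1 at 0.86 ± 0.14. DBP7 had 0.69, 0.56 and 0.75 in the sets of the strain labelled null and 0.95, 0.93 and 0.70 in dot4-1. In untagged DOT4 it had -0.075, 0.067 and -0.164, so its sets fell on both sides of 0 (adjusted p = 0.515). HAS1 (YMR290C) rose to 0.53 ± 0.16 in the strain labelled null and 0.41 ± 0.094 in dot4-1, and its -0.47 ± 0.098 was the lowest helicase value in untagged DOT4. DBP3 (YGL078C) and MAK5 (YBR142W) fell to -0.43 ± 0.14 and -0.42 ± 0.076 there.

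DBP6 (YNR038W) and SPB4 (YFL002C) had the smallest helicase values. DBP6 rose by 0.20 ± 0.10 in the strain labelled null and 0.18 ± 0.063 in dot4-1 and fell to -0.235 ± 0.019 in untagged DOT4. SPB4 had -0.07, 0.28 and 0.24 in the sets of the strain labelled null and 0.12, 0.26 and 0.13 in dot4-1. Its calls in these strains (adjusted p = 0.0305 and 0.016) were lost under several alternatives, given here with the log2 ratios in brackets. Both were lost with scaled arrays (0.094 and 0.096), with the strain in Cy3 only (0.03 and 0.11) and without set 2 of either strain (0.09 and 0.12). In the strain labelled null the call was also lost without set 3 (0.11) and when that strain was fitted alone (0.15). The other helicases, DBP10 (YDL031W) and DRS1 (YLL008W), rose by 0.40 to 0.47 in these strains and fell to -0.37 and -0.30 in untagged DOT4.

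The rRNA methyltransferase genes NOP2 (YNL061W) and SPB1 (YCL054W), whose products modify the large-subunit rRNA, rose to 0.48 ± 0.28 and 0.39 ± 0.20 in the strain labelled null and 0.485 ± 0.14 and 0.47 ± 0.072 in dot4-1. Both fell in untagged DOT4, NOP2 to -0.30 ± 0.12 and SPB1 to -0.23 ± 0.12.

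Brix-domain proteins share an RNA-binding fold, and RPF2 (YKR081C) with its partner RRS1 (YOR294W) brings the 5S RNA particle into the precursor. RPF2 and RRS1 rose to 0.57 ± 0.26 and 0.66 ± 0.225 in the strain labelled null and 0.48 ± 0.12 and 0.57 ± 0.14 in dot4-1, and fell to -0.32 ± 0.14 and -0.41 ± 0.13 in untagged DOT4. RPF2 had 0.266, 0.708 and 0.735 in the sets of the strain labelled null and 0.344, 0.524 and 0.564 in dot4-1. RRS1 had 0.403, 0.764 and 0.816 in the strain labelled null and 0.408, 0.667 and 0.644 in dot4-1. Set 1 was the lowest for both partners in both strains, as it was for 44 and 41 of all 51 members. BRX1 (YOL077C) was the highest of the group in the strain labelled null at 0.735 ± 0.19, and RPF1 (YHR088W) rose to 0.58 ± 0.26 there and 0.55 ± 0.09 in dot4-1. SSF1 (YHR066W) and SSF2 (YDR312W) are near-identical copies of 1 gene, and how far the array tells them apart is not stated in the labels. SSF1 had 0.32, 0.67 and 0.65 in the sets of the strain labelled null, 0.72, 0.74 and 0.60 in dot4-1, 0.004, 0.015 and 0.018 in dot4-5, and -0.28, 0.09 and -0.15 in untagged DOT4. SSF2 had 0.12, 0.11 and 0.29 in the strain labelled null, 0.05, 0.11 and 0.17 in dot4-1, 0.013, -0.088 and -0.005 in dot4-5, and -0.20, 0.10 and -0.17 in untagged DOT4. In dot4-1 every set of SSF1 was above every set of SSF2, with means of 0.69 ± 0.078 and 0.11 ± 0.061. SSF2 passed in the strain labelled null (adjusted p = 0.0173) but not in dot4-1 (adjusted p = 0.102). With dot4-1 in Cy3 only it passed, at a log2 ratio of 0.30. Its call in the strain labelled null was lost in Cy3 only, at a log2 ratio of 0.16. It was also lost in a fit of that strain alone, at a log2 ratio of 0.17, and with scaled arrays or without set 3, at 0.11.

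The other nucleolar factors, 13 genes for RNA-binding and scaffold proteins of early precursors, rose in 12 cases in the strain labelled null and in dot4-1. MAK16 (YAL025C), a partner of RPF1 and NSA1, had the highest member value in the strain labelled null, with sets at 0.65, 0.95 and 0.96 and a mean of 0.85 ± 0.18 (1.8-fold, adjusted p = 1.07e-06). In dot4-1 its sets were at 0.907, 0.815 and 0.78. In untagged DOT4 they were at -0.33, 0.05 and -0.28, which did not pass (adjusted p = 0.077). LOC1 (YFR001W), an RNA-binding protein also known for mRNA localization, rose to 0.80 ± 0.30 and 0.81 ± 0.24 in the strain labelled null and dot4-1. EBP2 (YKL172W), a nucleolar protein of early precursors, had 0.08, 0.74 and 0.83 in the strain labelled null and 0.65, 1.07 and 0.77 in dot4-1. In untagged DOT4 LOC1 and EBP2 were at -0.305 and -0.28 and did not pass (adjusted p = 0.0575 and 0.121). The translational repressor and assembly factor PUF6 (YDR496C) rose to 0.68 ± 0.31 in the strain labelled null and 0.62 ± 0.099 in dot4-1 and fell to -0.37 ± 0.15 in untagged DOT4. NSA1 (YGL111W), NOP4 (YPL043W), NOP12 (YOL041C) and NOP8 (YOL144W) rose by 0.32 to 0.51 in the strain labelled null and 0.40 to 0.61 in dot4-1, and they fell to between -0.21 and -0.35 in untagged DOT4.

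RRP14 (YKL082C), RRP15 (YPR143W) and NOP16 (YER002W) had 1 set near 0 in the strain labelled null, with set 1 at -0.037, -0.011 and 0.005 against 0.50 to 0.61 in sets 2 and 3. Their means of 0.34 to 0.38 passed, but not without set 2 (0.25 to 0.29) or set 3 (0.26 to 0.28). NIP7 (YPL211W), a partner of NOP8 that binds RNA, rose to 0.37 ± 0.066 in the strain labelled null and 0.19 ± 0.044 in dot4-1, and at -0.44 ± 0.047 it was the lowest of this group in untagged DOT4 (adjusted p = 1.11e-05).

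RSA3 (YLR221C), which acts with DBP6 and NOP8 in an early complex, went against the majority. Its sets were at 0.00, -0.06 and -0.08 in the strain labelled null, which did not pass (adjusted p = 0.243), and at -0.17, -0.21 and -0.22 in dot4-1, where it fell by 0.20 (adjusted p = 0.000201). In dot4-5 and untagged DOT4 it was at -0.02 ± 0.039 and -0.02 ± 0.063. The fall in dot4-1 depended on the dye, with arrays at -0.347, -0.233 and -0.435 with dot4-1 in Cy5 and at 0.004, -0.18 and -0.004 with it in Cy3, and with Cy3 only RSA3 was at -0.06 and did not pass. Its neighbour on the chromosome, the small-subunit gene UTP13, rose to 0.495 in dot4-1.

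**Figure D3:**
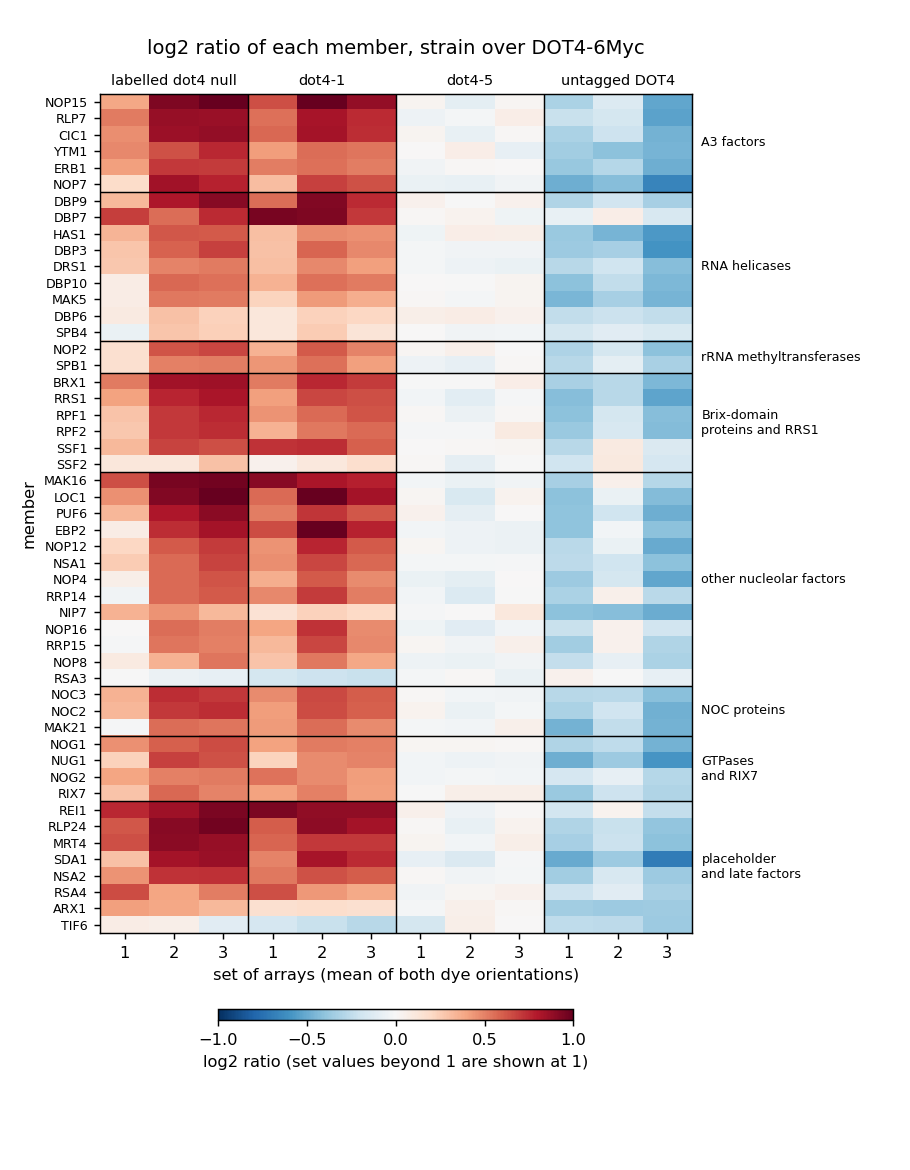
Each row is a member, grouped by role and ordered by its mean in the strain labelled null, and each column is 1 of 3 sets per strain, coloured by log2 ratio over DOT4-6Myc from blue (lower) to red (higher). Of 51 members, 46, 50 and 49 are above 0 in sets 1, 2 and 3 of the strain labelled null and 49 in each set of dot4-1. In dot4-5 24, 14 and 28 are above 0, all near white, and in untagged DOT4 1, 8 and 0 are above 0, with set 2 the palest blue.

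The NOC proteins escort precursors from the nucleolus towards the pore, and all 3 rose in the strain labelled null and in dot4-1 and fell in untagged DOT4. MAK21 (YDR060W, also NOC1) rose to 0.36 ± 0.325 in the strain labelled null, with set 1 at -0.01, and to 0.48 ± 0.07 in dot4-1. NOC2 (YOR206W) and NOC3 (YLR002C) rose to 0.59 ± 0.23 and 0.60 ± 0.22 in the strain labelled null and 0.56 ± 0.12 and 0.58 ± 0.097 in dot4-1. NOC2 had 0.329, 0.709 and 0.735 and NOC3 had 0.344, 0.739 and 0.705 in the sets of the strain labelled null. In untagged DOT4 the 3 were at -0.40 ± 0.13, -0.33 ± 0.14 and -0.32 ± 0.083.

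The GTPases NOG1 (YPL093W), NUG1 (YER006W) and NOG2 (YNR053C) and the AAA ATPase RIX7 (YLL034C), which strips NSA1 from the precursor, all moved alike in direction. They rose by 0.45 to 0.57 in the strain labelled null and 0.40 to 0.48 in dot4-1 and all 4 fell in untagged DOT4. NUG1 had 0.23, 0.68 and 0.64 in the strain labelled null, 0.23, 0.47 and 0.49 in dot4-1, and -0.49, -0.37 and -0.59 in untagged DOT4. NOG2 had 0.40, 0.50 and 0.52 in the strain labelled null, 0.54, 0.47 and 0.42 in dot4-1, and -0.17, -0.08 and -0.29 in untagged DOT4.

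Among placeholder and late factors, 7 of 8 rose in both strains. REI1 (YBR267W), a cytoplasmic factor that recycles ARX1, had the highest member value in dot4-1, with sets at 0.94, 0.89 and 0.88 and a mean of 0.90 ± 0.032 (1.87-fold, adjusted p = 3.69e-08). It was at 0.75, 0.85 and 0.94 in the strain labelled null and at -0.18, 0.03 and -0.24 in untagged DOT4 (adjusted p = 0.0811). REI1 overlaps the ORF SLM6 in the reference annotation, which rose to 0.58 ± 0.058 and 0.53 ± 0.096 in the strain labelled null and dot4-1, and whether the array separates their strands is not stated in the labels. RLP24 (YLR009W) and MRT4 (YKL009W), placeholders for the ribosomal proteins L24 and P0, rose to 0.83 ± 0.18 and 0.805 ± 0.14 in the strain labelled null and 0.78 ± 0.15 and 0.67 ± 0.072 in dot4-1. SDA1 (YGR245C), which is needed for export, rose to 0.66 ± 0.32 and 0.69 ± 0.17, and at -0.52 ± 0.17 it was next to NOP7 in untagged DOT4. NSA2 (YER126C) and RSA4 (YCR072C), factors of the nuclear precursor, rose to 0.63 ± 0.16 and 0.52 ± 0.13 in the strain labelled null and 0.59 ± 0.057 and 0.485 ± 0.14 in dot4-1.

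ARX1 (YDR101C), an export factor at the tunnel exit, had some of the tightest sets. They were 0.41, 0.38 and 0.33 in the strain labelled null and 0.158, 0.176 and 0.158 in dot4-1, which do not overlap, and those of untagged DOT4 were all within 0.02 of -0.35. Between the strain labelled null and dot4-1 the sets did not overlap for 4 of 51 members, against 29.2% of all ORFs. TIF6 (YPR016C), which keeps the subunits apart until it is released in the cytoplasm, was the other exception to the majority. Its sets were at 0.07, 0.06 and -0.11 in the strain labelled null (adjusted p = 0.924), -0.17, -0.22 and -0.28 in dot4-1 (a fall of 1.17-fold, adjusted p = 0.00138), -0.17, 0.06 and 0.00 in dot4-5, and -0.25, -0.26 and -0.36 in untagged DOT4 (adjusted p = 0.00121). With arrays scaled to a common spread it was at -0.13 in dot4-1 and did not pass.

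**Figure D4:**
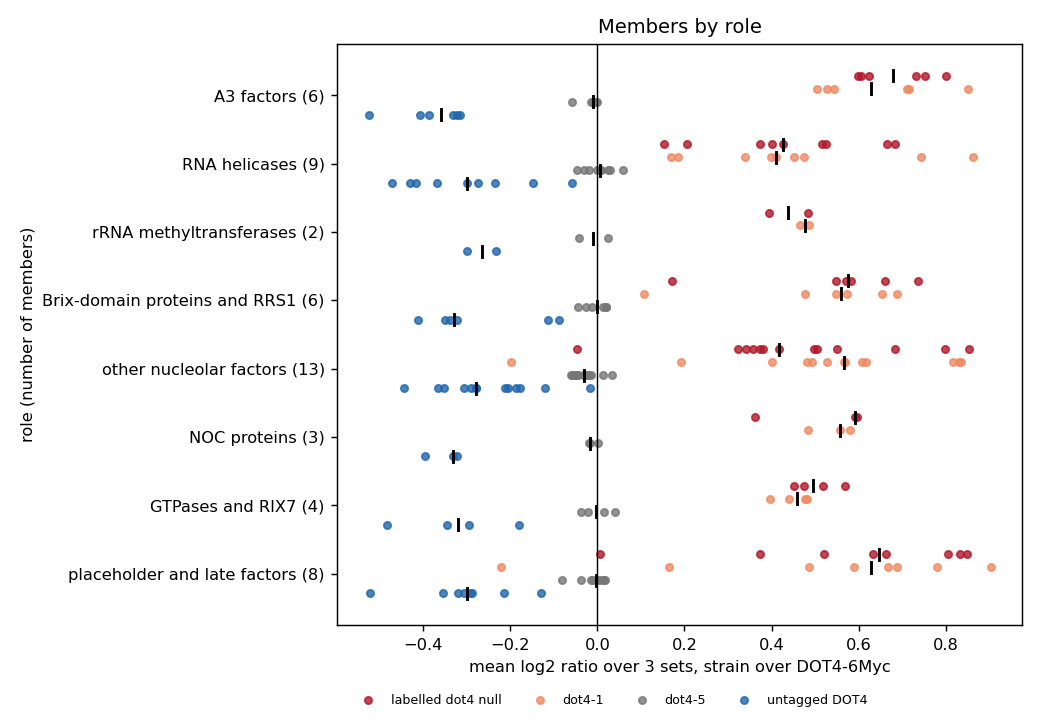
Mean log2 ratio over 3 sets (horizontal axis) of every member, 1 row of points per strain within each role, with a black bar at the median of the role. The role medians run from 0.417 to 0.677 in the strain labelled null, 0.41 to 0.63 in dot4-1, -0.03 to 0.006 in dot4-5 and -0.358 to -0.265 in untagged DOT4.

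In dot4-5 the 51 means ran only from -0.08 (SDA1) to 0.06 (DBP6). Next to these were NOP16 and NOP7, both at -0.06, and RIX7 at 0.04 and NIP7 at 0.03. The 95% intervals from the fit, which rest on the spread shared by all 4 strains, reached from -0.315 to 0.233 over the members. For single members, differences up to that size are thus not excluded by these arrays. In a fit of the dot4-5 sets alone 0 members passed, and 2.26% of all ORFs did.

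The calls in untagged DOT4 leaned on set 3, which was lowest for 42 of 51 members. Without set 3 the count that fell was 20, and it was 27 without set 1 and 41 without set 2. The share of all ORFs that fell was 8.96%, 10.3% and 9.33% in the same order, against 14.6% with all sets. The 13 members that missed the threshold lay between -0.32 and -0.02, and all 51 means were below 0. On values without centring 45 fell, against 21.7% of all ORFs lower and 3.1% higher. The share of higher genes among all called ORFs was 12.5% without centring and 43.3% with it.

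Differences between strains were tested through the shared DOT4-6Myc strain. Set against untagged DOT4, the strain labelled null asks how loss of the gene compares with its untagged form. Here 50 of 51 members were higher in the strain labelled null and 0 lower (27.7% of all ORFs higher and 27.2% lower, 54.9% in all), at a median difference of 0.83 (1.78-fold), and the sets did not overlap for 47 members, against 57.7% of all ORFs. The largest differences were SDA1 at 1.18, from 0.66 and -0.52, and RLP24 at 1.14, from 0.83 and -0.305. RSA3 was at -0.03 (95% interval -0.14 to 0.07). TIF6 was at 0.30, the next lowest after SSF2 at 0.26 and near SPB4 at 0.30. In dot4-1 against untagged DOT4, 49 members were higher and 1, RSA3 at -0.18, was lower, a call lost without centring (-0.09), on scaled arrays (-0.093) and with the strain in Cy3 only (-0.119) (31.6% of all ORFs higher and 31.1% lower, 62.8% in all), with SDA1 at 1.21 and NOP15 at 1.17 the highest and TIF6 at 0.07 not past the threshold (adjusted p = 0.394).

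The dot4-1 and dot4-5 strains carry the tag and untagged DOT4 does not. Allele and tag cannot be told apart in differences from untagged DOT4 alone. Against DOT4-6Myc the members' median was -0.01 in dot4-5 and -0.305 in untagged DOT4. In dot4-5 against untagged DOT4, 18 of 51 members were higher and 0 lower (8.23% of all ORFs higher and 4.87% lower, 13.1% in all), at a median of 0.30. HAS1 at 0.50 and NIP7 at 0.48 were the highest and RSA3 at -0.01 and DBP7 at 0.06 the lowest. This count was 34 without centring, 35 on scaled arrays and 36 when both strains were fitted alone, against 11.6%, 14.6% and 13.5% of all ORFs higher. It was 11, 9 and 8 without sets 1, 2 and 3 of dot4-5, against 5.59%, 4.04% and 4.23% of all ORFs higher. Without sets 1 and 3 of untagged DOT4 it was 11 and 9, against 6.0% and 5.33%, so the count of members is not a firm number. The sets did not overlap for 40 of 51 members, against 40.5% of all ORFs.

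Both tagged alleles were then set against each other. In dot4-1 46 members were higher than in dot4-5 and 2 lower (29.6% of all ORFs higher and 31.4% lower, 61.0% in all), at a median of 0.535, and the sets did not overlap for 50, against 71.6% of all ORFs. REI1 at 0.90 and MAK16 at 0.88 differed most, and TIF6 at -0.18 and RSA3 at -0.175 were lower in dot4-1. Both of these calls were lost without centring (-0.184 and -0.175), on scaled arrays (-0.043 and -0.049) and with the strain in Cy3 only (-0.156 and -0.158), and that of TIF6 also without set 2 or 3 of either strain (-0.137 to -0.185). SSF2 at 0.13, DBP6 at 0.125 and SPB4 at 0.19 did not pass. In the strain labelled null 46 members were higher than in dot4-5 and 0 lower (23.3% of all ORFs higher and 24.2% lower, 47.5% in all), with MAK16 at 0.90 and REI1 at 0.84 the highest. The 5 that did not pass were RSA3 at -0.02, TIF6 at 0.04, SPB4 at 0.17, SSF2 at 0.20 and RRP15 at 0.33.

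Between the strain labelled null and dot4-1 only ARX1 at 0.21 (95% interval 0.12 to 0.30, adjusted p = 0.0103) and NIP7 at 0.18 (95% interval 0.07 to 0.30, adjusted p = 0.0495) passed, both higher in the strain labelled null (4.99% of all ORFs higher and 4.83% lower, 9.81% in all). Same-numbered sets of these strains deviated together, but so did set 3 of the strain labelled null and set 2 of dot4-1. With the set number as a block 1 member passed, since NIP7 at 0.18 had an adjusted p of 0.0565. With the block in a fit of these strains alone 2 passed, ARX1 and TIF6 (adjusted p = 0.0301 for TIF6), and NIP7 did not (adjusted p = 0.0526). In that fit 7.81% of all ORFs were higher and 6.17% lower (14.0% in all). The call of NIP7 was also lost under other alternatives, at log2 differences of 0.145 to 0.20. The omission of set 1 or 2 of the strain labelled null and of any set of dot4-1 were among them. ARX1 lost its call without centring (log2 difference 0.22), on scaled arrays (0.16) and when only these strains were fitted without the block (0.21). TIF6 at 0.23 (adjusted p = 0.0569) and RSA3 at 0.15 (adjusted p = 0.0628) missed the threshold and passed without set 3 of the strain labelled null, at 0.29 and 0.17. The lowest differences were EBP2 at -0.28 (95% interval -0.66 to 0.10) and DBP7 at -0.20 (95% interval -0.37 to -0.03, adjusted p = 0.124). The median over members was 0.02, and the interval lay within 0.5 of 0 on both sides for 49 of 51 members, so differences under that size remain possible for most.

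**Figure D5:**
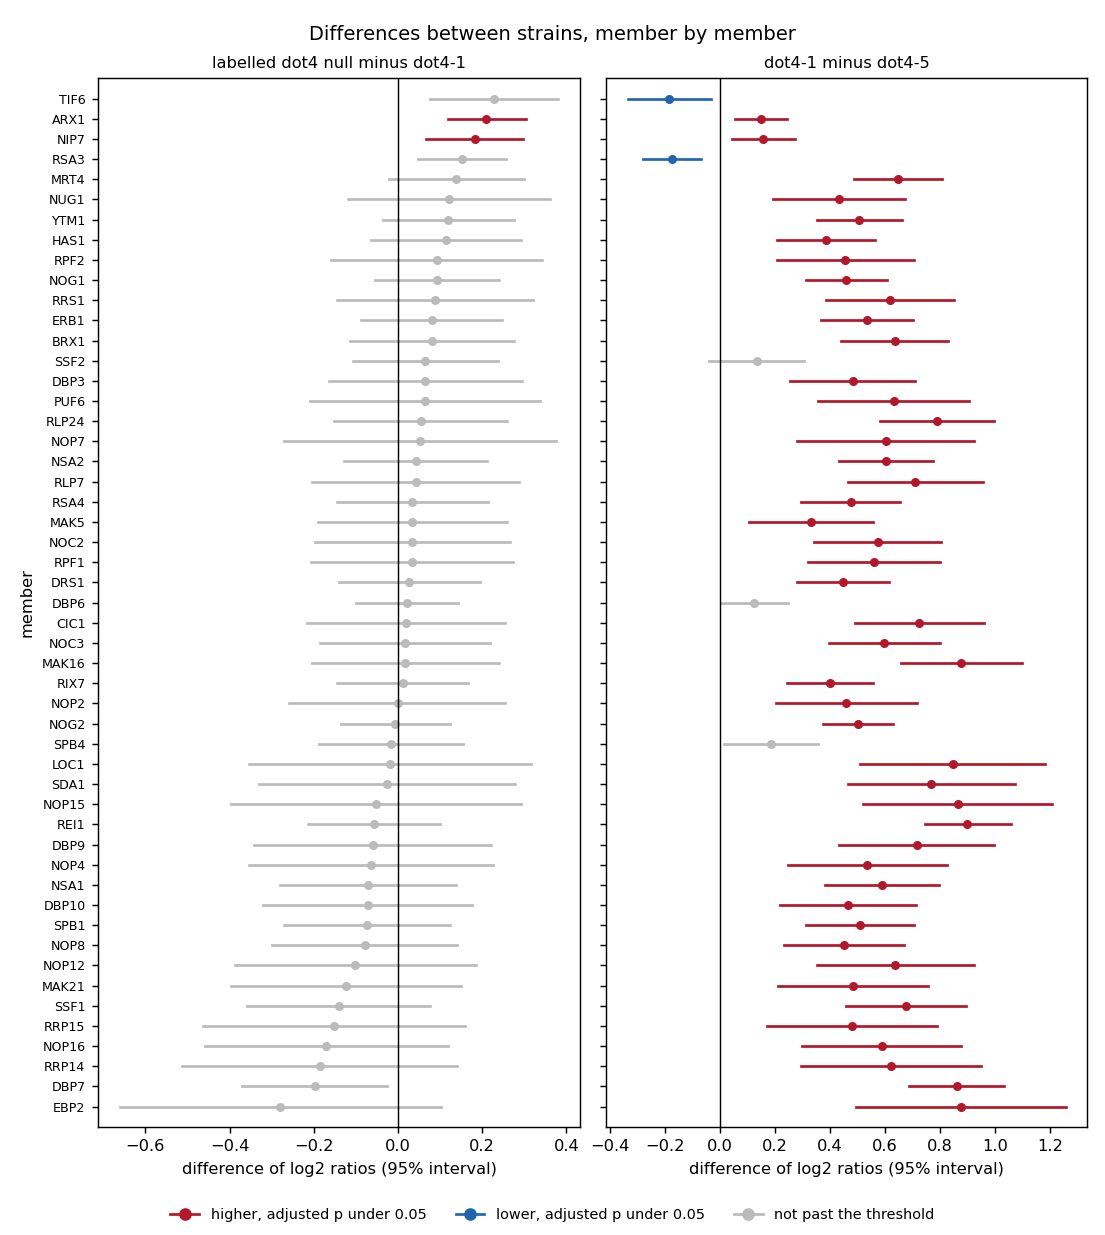
Difference of log2 ratios with its 95% interval (horizontal axis) for each member (vertical axis), in the strain labelled null minus dot4-1 (left) and dot4-1 minus dot4-5 (right), coloured where the adjusted p is under 0.05. On the left 2 members pass, and on the right 46 are higher and 2 lower in dot4-1.

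Other genes of ribosome production were read beside the members from lists by role. Of all ORFs, 30.7% were higher in the strain labelled null, 35.9% higher in dot4-1 and 14.6% lower in untagged DOT4. Of 35 other large-subunit assembly genes, 31 rose and 1 fell in the strain labelled null (median 0.39), with the export factor ECM1 at 0.89 ± 0.17 the highest and NOP13 at -0.20 ± 0.078 the lowest. In dot4-1 32 rose and 1 fell (median 0.39), with IPI1, a factor of rRNA spacer removal, at 0.79 ± 0.072 and NOP13 at -0.39 ± 0.084. In untagged DOT4 27 fell and 0 rose (median -0.30), with RRP5 lowest at -0.51 ± 0.13. Of 38 small-subunit processome genes, 37 rose in the strain labelled null (median 0.50), 34 rose in dot4-1 (median 0.53) and 31 fell in untagged DOT4 (median -0.30), with 0 calls the other way. The putative helicase gene DHR2 was the highest in the strain labelled null at 0.88 ± 0.165 and the lowest in untagged DOT4 at -0.515 ± 0.14, and the helicase gene FAL1 was the highest in dot4-1 at 1.13 ± 0.077. The lowest were ECM16 at 0.13 ± 0.26 in the strain labelled null and NOP1 at -0.04 ± 0.038 in dot4-1, and neither passed. Of 14 genes of RNA polymerase I and its initiation factors, 12 rose in both strains, with the initiation factor RRN3 at 1.14 ± 0.051 and 1.36 ± 0.11, and 7 fell in untagged DOT4, with RPA190, the largest subunit, at -0.46 ± 0.057. RRN5 was the lowest at 0.005 ± 0.26 and -0.12 ± 0.069 in the strain labelled null and dot4-1 and did not pass. In dot4-5 0 genes of these 3 lists passed.

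The 60S ribosomal protein genes encode the proteins that the members help to assemble. Of 81 genes, 22 rose and 36 fell in the strain labelled null (27.2% and 44.4%, against 30.7% and 32.7% of all ORFs, median -0.085), so the share that rose was near that of all ORFs. In dot4-1 16 rose and 54 fell (19.8% and 66.7%, against 35.9% and 37.5% of all ORFs, median -0.22), and in untagged DOT4 60 fell (74.1%, against 14.6% of all ORFs, median -0.16). RPL22B at -0.58 ± 0.17 was the lowest in the strain labelled null and RPP2A at -0.615 ± 0.15 in dot4-1. The highest were RPL35A at 0.415 ± 0.082 in the strain labelled null and RPL35B at 0.415 ± 0.105 in dot4-1. In untagged DOT4 they lay between -0.22 ± 0.034 (RPL33B) and -0.03 ± 0.078 (RPL16B), and in dot4-5 0 passed. Many of these genes come in near-identical pairs that the array may not separate. In untagged DOT4 both the assembly genes and the ribosomal protein genes were thus lower. In dot4-1 and in the strain labelled null their medians had opposite signs, with that of the ribosomal protein genes nearer to 0 in the latter.

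The members lie on 14 chromosomes, with at most 6 on 1, and no member neighbours another. Of the genes next to a member, 93 were in none of the lists above, and their medians were 0.07 in the strain labelled null, 0.07 in dot4-1, 0.00 in dot4-5 and -0.04 in untagged DOT4. In the strain labelled null 36 of these neighbours rose and 22 fell (38.7% and 23.7%), against 30.7% and 32.7% of all ORFs. Of 26 neighbours that are transcribed away from a member across a shared upstream region, 12 rose and 4 fell in the strain labelled null (46.2% and 15.4%, median 0.09). In dot4-1 15 of them rose and 5 fell (57.7% and 19.2%, median 0.22), against 35.9% and 37.5% of all ORFs. The highest of these was LCP5, at 0.70 in the strain labelled null and 0.865 in dot4-1, itself a gene of small-subunit assembly in yeast. The lists thus do not hold every gene of ribosome production, and the 93 neighbours may include more such genes.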

How the data were processed

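The authors deposited log2 ratios of the 2 channels of each array, 1 value per ORF. The scale is not named per the labels and follows from the values, while the array type, scanner and any background correction or normalization before deposit stand in no label used here. Groups and sets were taken from the labels. Median centring per array came first, then the turn to strain over DOT4-6Myc and the mean of the 2 arrays of a set. limma 3.58.1 (lmFit and eBayes, R 4.3.3) took these 12 set means, with a mean per strain and contrasts for differences. ORFs with values in under 2 of 3 sets in any strain were left out. Tests were two-sided, adjusted by Benjamini-Hochberg, with a threshold of 0.05. The script was checked on simulated ratios. The number of arrays limits the precision, since no spot intensities or depths were used. Of 6205 IDs, 5705 matched the reference annotation. Neighbours were read from its gene order, and no build is named for the arrays, so no coordinates are given. RPP1, an RNase P gene, was left out of the ribosomal protein list. Promoter motifs were planned and not analysed here.

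The members, role groups, lists and tests were chosen with earlier results of these data known, and so was the turning of all arrays. All members may be named. Those given most fully are complexes, the extremes of roles, strains and differences, and members against the majority or among the few that missed the threshold. Other genes named are UBP10, list extremes and neighbours, the last chosen after their values were seen. Deviations from the strain mean correlated at 0.672, 0.509 and 0.317 across ORFs for same-numbered sets of the strain labelled null and dot4-1. All were over 0.1, so the numbers were taken to pair these sets, from the data and not from the labels. Those of the other strain pairs did not meet this. Set 3 of the strain labelled null, however, correlated more with set 2 of dot4-1 (0.452) than with its set 3. Set 2 of the strain labelled null correlated at 0.32 with set 3 of dot4-1. The pairing by number is thus not settled for sets 2 and 3. Alternatives were no centring, scaling to a common spread, each dye alone, a replicate block, only complete ORFs, a fit of the compared strains alone and omission of each set. Figures were drawn with matplotlib 3.10.9.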

Additional observations from a re-analysis of the deposited data

Results flagged for a closer look

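The counts below are listed because the ratios of 2 strains over DOT4-6Myc were tested against each other, as a contrast through that shared strain. The count of members past the threshold was 50 for the strain labelled null minus untagged DOT4, 50 for dot4-1 minus untagged DOT4, 18 for dot4-5 minus untagged DOT4, 2 for the strain labelled null minus dot4-1, 46 for the strain labelled null minus dot4-5 and 48 for dot4-1 minus dot4-5. All ORFs passed in 54.9%, 62.8%, 13.1%, 9.81%, 47.5% and 61.0% of cases in the same order. With 3 sets per strain no set was tested as an outlier.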

How the results depend on the processing

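The counts of members past the threshold stayed within 1.5 times their value under every alternative run for the strain labelled null, dot4-1 and dot4-5 against DOT4-6Myc, with dot4-5 at 0 throughout, and for the differences of the strain labelled null and dot4-1 from untagged DOT4 and from dot4-5. In untagged DOT4 the count ran from 20 to 41 with a set left out, against 8.96% to 10.3% of all ORFs lower. The count for dot4-5 minus untagged DOT4 was 34 without centring, 35 with scaled arrays, 11 in Cy3 only and 36 in a fit of both strains alone. The shares of all ORFs higher were 11.6%, 14.6%, 7.08% and 13.5% in the same order. With a set left out the count was 8 to 16, against 4.04% to 6.0% of all ORFs higher. The count for the strain labelled null minus dot4-1 was 0 without centring, with scaled arrays and in a fit of both strains alone. There 2.23%, 0.355% and 1.05% of all ORFs were higher. It was 1 in Cy5 only, in Cy3 only and with the replicate block, against 2.92%, 3.76% and 5.55%. With a set left out it was 1 to 4, against 2.23% to 9.78%. Medians near 0 changed sign. That of dot4-5 was 0.001 without centring, 0.010 in Cy3 only and 0.004 without set 2 (from -0.022 to 0.004 over the omitted sets), and that of the strain labelled null minus dot4-1 was -0.031 and -0.038 without sets 2 and 3 of the strain labelled null and -0.032 without set 1 of dot4-1, with up to 0.143 without set 1 of the strain labelled null. The causes were not tested. The set number was taken as a pairing for the strain labelled null with dot4-1 only, and the replicate block, here run over all strains, moved no other count by over 1.5 times. In a replicate block fit of these 2 strains alone, chosen after seeing the data, the count was 2, against 7.81% of all ORFs higher. In the other strain pairs at most 2 of 3 same-numbered pairs of sets correlated over 0.1. On scaled arrays the medians of dot4-1 moved to 0.315 against DOT4-6Myc, 0.71 against untagged DOT4 and 0.361 against dot4-5. Those of the strain labelled null were 0.359, 0.755 and 0.382 there in the same order. Values near 0.1 in size are not resolved by 3 sets.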
